A study of Mus musculus with 6 samples.

Results

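The E2F transcription factors and the retinoblastoma pocket proteins were examined in hematopoietic stem cells (HSCs) that did or did not lose Dpy30. The set was given by name and holds 10 genes of the 38926 in the count lists: the activators E2f1, E2f2 and E2f3, the repressors E2f4, E2f6, E2f7 and E2f8, and the pocket protein genes Rb1, Rbl1 and Rbl2. All 10 passed the filter on low counts and were among the 13646 genes tested. RNA was sequenced from HSCs sorted by surface markers from fetal liver at embryonic day 14.5, in 3 control and 3 knockout samples, with 1 of each genotype from each of 3 litters. Control embryos were Vav-Cre; Dpy30F/+ and knockout embryos were Vav-Cre; Dpy30F/-, so both groups carried the Cre transgene and 1 floxed Dpy30 allele. Vav-Cre is active in blood-forming cells, and the controls are a model of heterozygous cells where Cre has acted, not of fully intact ones. Whether a sample was 1 embryo or a pool is not given in the sources used here, so p-values measure the spread between these samples. Dpy30 encodes a core subunit of the complexes that methylate lysine 4 of histone H3.

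E2F factors bind DNA with a DP partner, or, for E2F7 and E2F8, without one, and switch genes of DNA replication and mitosis on or off. Pocket proteins bind E2F factors: RB1 mainly holds the activators E2F1 to E2F3 in check, and p107 (encoded by Rbl1) and p130 (encoded by Rbl2) act mainly with E2F4 in repressor complexes. p130 with E2F4 and the MuvB proteins forms the DREAM complex of resting cells, and cyclin-dependent kinases release E2F by phosphorylating the pocket proteins. E2F6 lacks the pocket-binding part and works with a variant Polycomb complex. In blood, loss of the whole pocket protein family drives stem cells out of rest.

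E2F genes are themselves known E2F targets, so the start regions of the members were searched for the E2F site. RefSeq start windows (build GRCm38.p6, 250 bases before to 50 after the start) were found for 8 of the 10 members; E2f4 and Rb1 were not matched. The words searched, on both strands, were TTTCCCGC, TTTCGCGC, TTTGCCGC and TTTGGCGC, whose matches can share bases with each other; the other word was TTTGAA, the core of the cell cycle homology region read by MuvB complexes. These 8 genes have 10 windows, since E2f2 and E2f3 have 2 each. An E2F word was present in 4 of the 10 windows (1 each of E2f2, E2f3, E2f7 and Rbl1), and in 2.27% of all 32851 windows of this length. The first base of the word on the gene strand stood at position -18 for Rbl1, -11 for E2f3, -198 for E2f7 and 40 for E2f2, counted from the start. The window of E2f1 lies 466 bases inside the start that GENCODE gives, so it may not be the region used. The same holds for the second window of E2f3, which lies 1672 bases inside and holds neither word. TTTGAA was present in 4 of the 10 windows, 1 each of E2f2, E2f3, E2f8 and Rbl2, and in 17.9% of all windows; that of E2f2 lies 8388 bases inside the GENCODE start. A match describes these letters and is not evidence of binding. The windows of Rbl1 (chr2:157204485-157204784, minus strand) and E2f6 (chr12:16810715-16811014, plus strand) are shown because the levels of these 2 genes were alike across the libraries, and that of E2f3 (chr13:29986014-29986313, minus strand) because it holds both words. Capitals mark the E2F word, which in E2f3 is the reverse complement of TTTCCCGC.
Rbl1: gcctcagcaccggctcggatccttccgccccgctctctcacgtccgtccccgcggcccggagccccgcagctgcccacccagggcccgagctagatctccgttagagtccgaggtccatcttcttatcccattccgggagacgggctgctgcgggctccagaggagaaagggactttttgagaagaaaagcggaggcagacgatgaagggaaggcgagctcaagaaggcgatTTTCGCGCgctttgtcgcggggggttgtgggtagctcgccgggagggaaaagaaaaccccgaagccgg
E2f6: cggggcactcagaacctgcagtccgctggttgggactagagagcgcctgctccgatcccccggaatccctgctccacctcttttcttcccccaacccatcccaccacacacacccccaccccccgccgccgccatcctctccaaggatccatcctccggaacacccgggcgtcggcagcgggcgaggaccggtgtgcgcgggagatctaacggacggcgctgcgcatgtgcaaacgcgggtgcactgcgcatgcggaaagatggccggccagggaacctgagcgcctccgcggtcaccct
E2f3: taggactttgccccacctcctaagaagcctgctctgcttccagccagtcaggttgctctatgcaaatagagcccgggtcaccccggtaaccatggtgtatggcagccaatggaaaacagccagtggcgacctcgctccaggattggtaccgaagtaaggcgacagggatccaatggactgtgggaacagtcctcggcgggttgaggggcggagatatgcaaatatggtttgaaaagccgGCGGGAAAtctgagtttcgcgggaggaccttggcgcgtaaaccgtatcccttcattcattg
Among these 3, the windows of Rbl1 and E2f3 hold an E2F word and that of E2f6 holds none. Sites outside these words and windows were not searched for.

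The libraries held 31897737 to 43394700 counts in genes, of which the mitochondrial ribosomal RNAs took 45.2% to 61.7%. The targeted gene followed the labels: Dpy30 was at 24.6, 24.2 and 31.6 CPM (counts scaled to a library total of 1000000, with that total adjusted for composition by TMM) in controls 1 to 3 and at 7.93, 5.95 and 13.7 CPM in knockouts 1 to 3. Its log2 fold change was -1.55 (edgeR adjusted p = 0.672), so the deleted gene did not pass the test either. The TMM factor was 0.747 in control 1, 1.25 in knockout 1 and 0.990 to 1.05 in the other libraries. Whether the groups overlap for a gene can depend on this scaling. Knockout 3 stood apart, and knockout 2 to a lesser degree: 13972 and 14674 genes had a count there, against 16149 to 17241 in the controls and 16857 in knockout 1, and the median absolute deviation from the control mean of log2 CPM was 1.04 and 0.73, against 0.31 to 0.35 in the controls and 0.58 in knockout 1. Knockout 3 was the highest of the 6 libraries for 4 of the 10 members and the lowest for 2, where it was highest for 25.6% and lowest for 33.1% of all tested genes. The summed level of 10 HSC markers was 640 to 680.5 CPM in controls, 813 and 954 CPM in knockouts 1 and 2, and 279 CPM in knockout 3. All 12 myeloid markers had a log2 fold change above 0, with sums of 136 to 258 CPM in controls and 547, 473 and 1364 CPM in knockouts 1 to 3, and only 1 marker was at 0 in any library. The summed level of 10 erythroid markers read 1096, 2110 and 1976 CPM in the controls of litters 1 to 3 and 864, 1073 and 2595 CPM in their knockouts. Hepatocyte markers were at 3.39 to 21.9 CPM in sum, with 2 to 5 of 8 at 0. These markers and library measures moved with several results below and their part in them was not tested. In bulk RNA, fewer cells of a type and less RNA per cell cannot be told apart.

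None of the 10 genes passed the test. In edgeR's quasi-likelihood test of knockout against control, with p-values adjusted over all 13646 genes, 0 members had an adjusted p under 0.05, where 0% of all genes did. Without adjustment 2 members had a p under 0.05, Rb1 and Rbl2, both higher in the knockouts, and 6.51% of all genes did (4.26% higher and 2.24% lower). DESeq2 called 0 members (it called 1.03% of the 13390 genes given an adjusted p, or 1.01% of all tested) and limma-voom called 0. The knockout values of 1 member lay above all control values (Rbl2; 6.39% of all genes) and those of 1 member lay below (E2f6; 7.74%). Higher in the knockout of all 3 litters were 2 members, Rb1 and Rbl2 (12.3% of all genes), and lower in all 3 was 1, E2f6 (15.9%). The median log2 fold change, knockout over control, was -0.05 over the 10 members, 3 of them above 0, and 0.01 over all tested genes, 50.8% of them above 0. Without knockout 3 the member median was -0.17, again with 3 members above 0 and 7 below, where 51.2% of all genes were below. In that fit 3 members, E2f2, E2f4 and Rbl2, had an unadjusted edgeR p under 0.05, as did 1125 of all 14774 genes tested.

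**Figure D1:**
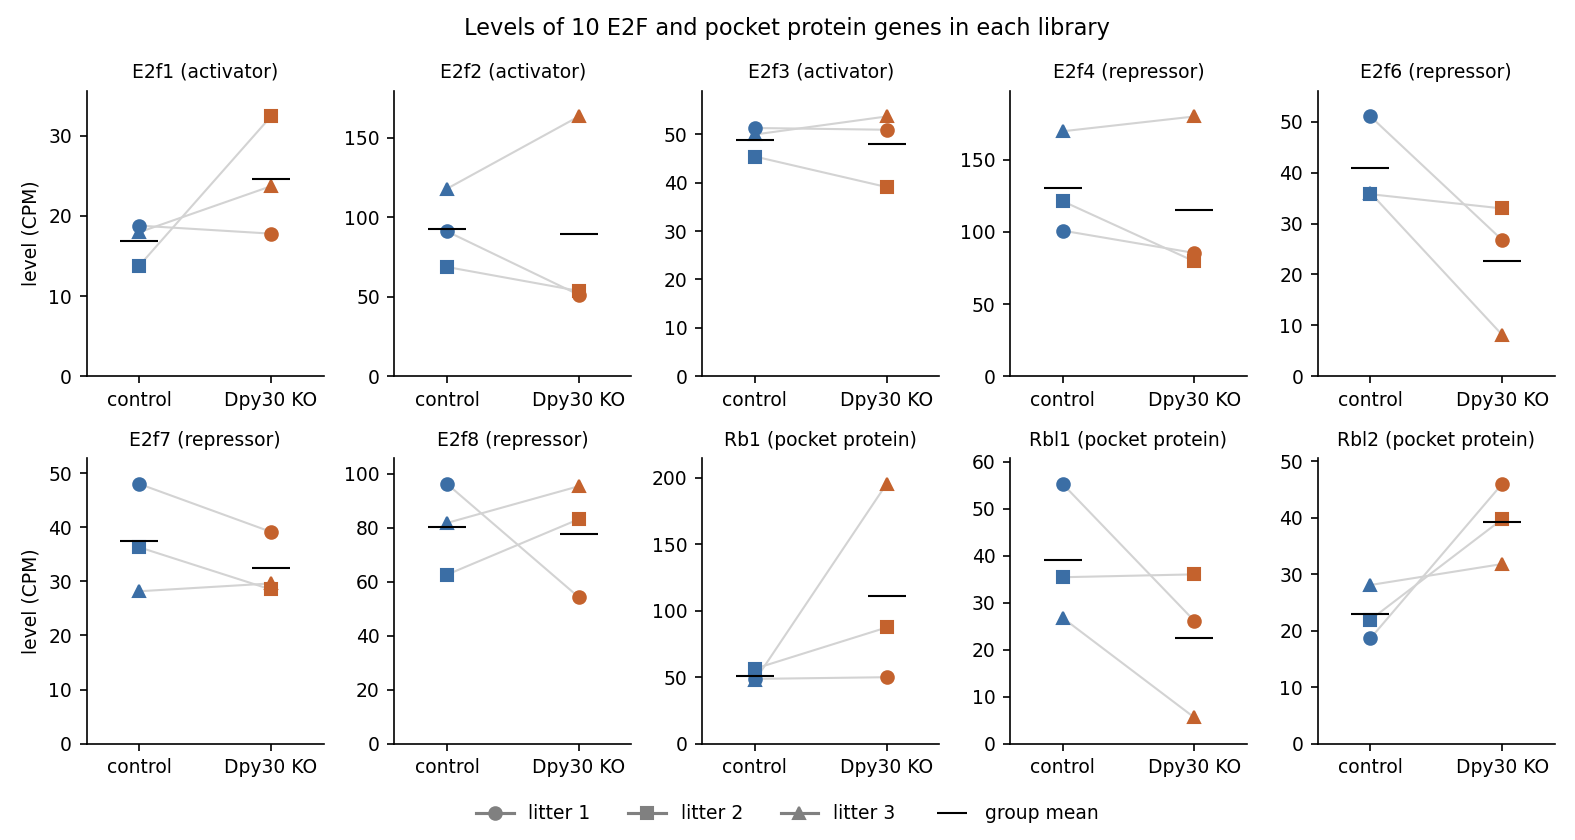
Level in CPM (vertical axis, from 0) of each of the 10 genes in 3 control and 3 Dpy30 knockout libraries; shapes mark the litters, grey lines join samples of 1 litter and black bars are group means. Rbl2 is the gene whose knockout points all lie above the controls and E2f6 the gene whose knockout points all lie below, and knockout 3 (triangle) is the highest point for E2f2, E2f3, E2f4 and Rb1 and the lowest for E2f6 and Rbl1.

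Among the activators, E2f1, whose product drives entry into S phase and can also trigger cell death, was above every control in 2 of 3 knockouts. E2f1 (chromosome 2, 154559407 to 154569892, minus strand, GRCm38) stood at 18.8, 13.8 and 17.96 CPM in the controls of litters 1 to 3 and at 17.8, 32.4 and 23.7 CPM in their knockouts. Knockouts 2 and 3 were above every control and knockout 1 lay inside their range. The means were 16.8 ± 2.67 and 24.6 ± 7.35 CPM (SD, n = 3 each), a log2 fold change of 0.55 (SE 0.40; edgeR adjusted p = 0.866), and 0.30 without knockout 2.

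E2f2 is a close relative of E2f1 that is known for its role in red cell maturation. E2f2 (chromosome 4, 136172394 to 136196057, plus strand) stood at 91.0, 68.7 and 118 CPM in the controls of litters 1 to 3 and at 51.2, 53.6 and 163 CPM in their knockouts. Knockouts 1 and 2 were below every control, and knockout 3 was above every control. E2f2 had a log2 fold change of -0.05 (SE 0.47; edgeR adjusted p = 0.994) over all libraries and -0.81 without knockout 3 (edgeR unadjusted p = 0.0240, adjusted p = 0.613). In litter 3 both E2f2 and the erythroid sum were higher in the knockout than in the control, and in litters 1 and 2 both were lower. E2f3, E2f4 and E2f7 had these same directions, so the match is not particular to E2f2. Of the 10 erythroid markers 5 had a log2 fold change above 0 and 5 one below. Any link between E2f2 and these markers was not tested.

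E2f3, the third activator, was the steadiest member. Its level (chromosome 13, 29906575 to 29986063, minus strand) read 51.3, 45.4 and 49.97 CPM in the controls of litters 1 to 3 and 50.95, 39.1 and 53.7 CPM in their knockouts. Its highest library was 1.37 times its lowest, where the same ratio was 1.70 to 9.92 for the other 9 members. E2f3 had a log2 fold change of -0.03 (SE 0.26; edgeR adjusted p = 0.993).

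Among the repressors, E2f6 was the member with the lowest log2 fold change. E2f6 (chromosome 12, 16810963 to 16839742, plus strand) stood at 51.1, 35.8 and 36.0 CPM in the controls of litters 1 to 3 and at 26.8, 33.0 and 8.14 CPM in their knockouts. Every knockout was below every control, by little for knockout 2 and by the most for knockout 3. The means were 40.97 ± 8.75 and 22.6 ± 12.9 CPM (SD, n = 3 each), a log2 fold change of -0.86 (SE 0.51; edgeR adjusted p = 0.833). Without knockout 3 it was -0.44 (edgeR adjusted p = 0.791), so 1 library, the one with the fewest HSC marker counts, carried much of the difference.

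E2f4 encodes the main E2F partner of p107 and p130 and is needed for fetal red cell formation. Its level (chromosome 8, 105297663 to 105305370, plus strand) read 101, 121 and 170 CPM in the controls of litters 1 to 3 and 85.4, 79.6 and 180.1 CPM in their knockouts. As for E2f2, knockouts 1 and 2 were below every control and knockout 3 was above every control on the TMM scale. E2f4 had a log2 fold change of -0.18 (SE 0.37; edgeR adjusted p = 0.964), and -0.65 without knockout 3 (edgeR unadjusted p = 0.0461, adjusted p = 0.645). With counts of all libraries scaled by library size only it was -0.03.

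E2f7 and E2f8 encode the atypical repressors, which bind DNA without a DP partner and shut off E2F targets late in S phase. E2f7 (chromosome 10, 110745439 to 110787384, plus strand) stood at 48.0, 36.3 and 28.2 CPM in the controls of litters 1 to 3 and at 39.1, 28.5 and 29.6 CPM in their knockouts. E2f8 (chromosome 7, 48866429 to 48881596, minus strand) stood at 96.2, 62.6 and 81.7 CPM in the controls of litters 1 to 3 and at 54.2, 83.1 and 95.3 CPM in their knockouts. The groups overlapped for both genes. Their log2 fold changes were -0.21 (SE 0.33; edgeR adjusted p = 0.949) and -0.05 (SE 0.29; edgeR adjusted p = 0.990).

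Activators were then set against repressors. The mean log2 CPM of the 4 repressors was 6.13, 5.81 and 5.94 for the controls of litters 1 to 3 and 5.56, 5.64 and 5.50 for their knockouts, with every knockout below every control. That separation rests on E2f6: without it the means were 6.28, 6.03 and 6.19 in the controls and 5.82, 5.84 and 6.32 in the knockouts, so that knockout 3 lay above all controls. The summed CPM of the 4 repressors overlapped as well, at 256 to 316 CPM in controls and 206 to 313 CPM in knockouts. For the 3 activators the control values were 5.48, 5.13 and 5.57 and the knockout values 5.17, 5.35 and 5.89, and the groups overlapped. Activators minus repressors gave control values of -0.65, -0.68 and -0.37 and knockout values of -0.39, -0.29 and 0.39, on the log2 scale. Its zero has no meaning of its own, since it depends on gene lengths. The control mean was -0.57 ± 0.17 and the knockout mean -0.10 ± 0.42 (SD, n = 3 each), a difference of 0.47, with 0.27, 0.39 and 0.76 within litters 1 to 3. Activators minus repressors was higher in the knockout of each litter, although control 3 and knockout 1 overlapped across litters. The difference was 0.23 without knockout 3, and 0.25 with E2f6 left out of the repressors, a choice made after its values were seen. As a score over chosen genes it carries no test. The activator difference of 0.08 became -0.04 with upper-quartile scaling, and with counts scaled by library size only the repressor means of the 2 groups overlapped (5.71 to 5.96 in controls, 5.51 to 5.88 in knockouts).

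**Figure D2:**
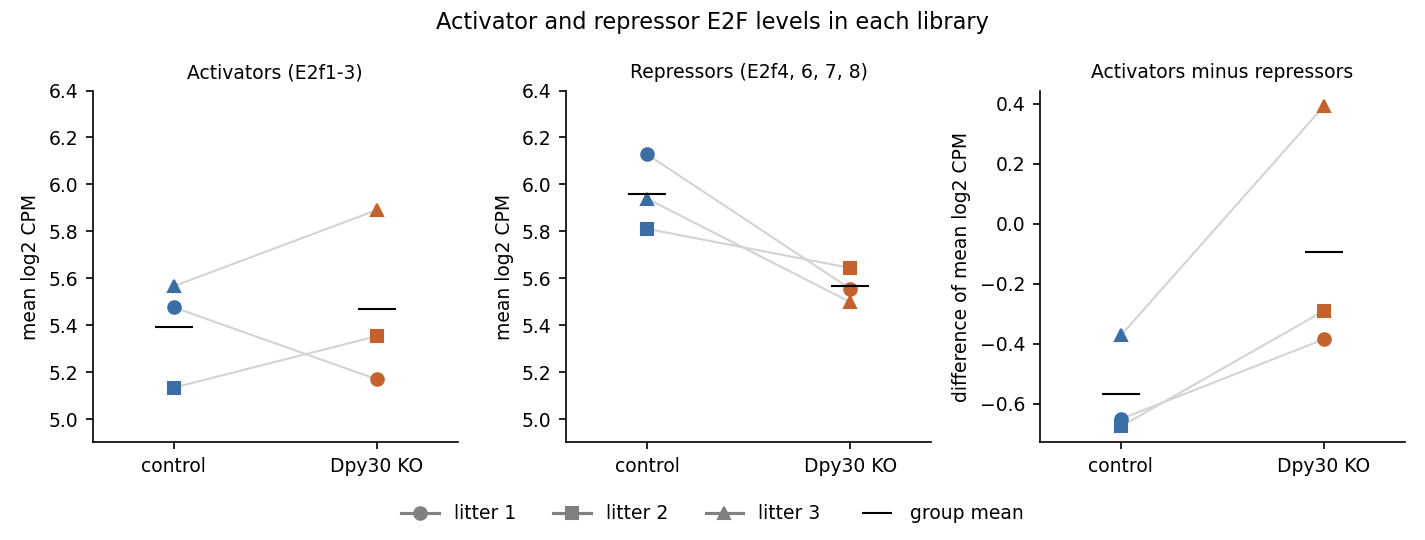
Mean log2 CPM of the 3 activators and of the 4 repressors, and their difference (vertical axes, log2 scale), in each control and Dpy30 knockout library; shapes mark the litters, grey lines join a litter and black bars are group means. The repressor points of the knockouts (5.50 to 5.64) lie below those of the controls (5.81 to 6.13) with E2f6 among them but not without it, and the difference is higher in the knockout of each litter.

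Of the pocket protein genes, Rb1 and Rbl2 had log2 fold changes above 0 and Rbl1 one below 0. Rb1, which encodes the retinoblastoma protein (chromosome 14, 73183673 to 73325822, minus strand), stood at 48.7, 56.4 and 47.6 CPM in the controls of litters 1 to 3 and at 49.99, 87.4 and 195 CPM in their knockouts. The controls lay close together, knockout 1 lay among them, and knockouts 2 and 3 were above them. The means were 50.9 ± 4.80 and 110.9 ± 75.5 CPM (SD, n = 3 each), a log2 fold change of 1.12 (SE 0.46; edgeR unadjusted p = 0.0401, adjusted p = 0.758). Without knockout 3 it was 0.44 (edgeR unadjusted p = 0.179, adjusted p = 0.779). That library also had the highest myeloid and erythroid sums (1364 and 2595 CPM) and the lowest HSC marker sum (279 CPM). The myeloid sum was 547 CPM in knockout 1 and 473 CPM in knockout 2, unlike the order of Rb1, and its part was not tested. Rb1 shares 6.78% of its exonic bases with Lpar6 and 8.11% with Rcbtb2, both on the opposite strand, and whether the counting used strand is not given in the sources used here. Lpar6 was at 12.4 to 23.9 CPM in controls and at 16.2, 7.39 and 6.65 CPM in knockouts 1 to 3. Rcbtb2 was at 14.8 to 16.5 CPM in controls and at 20.2, 33.6 and 16.7 CPM in knockouts 1 to 3, all above the controls and highest in knockout 2. The part of reads from these neighbours in the Rb1 values was not tested.

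Rbl2, which encodes p130, the pocket protein of resting cells, was higher in all 3 knockouts. Rbl2 (chromosome 8, 91070057 to 91123844, plus strand) stood at 18.6, 21.96 and 28.1 CPM in the controls of litters 1 to 3 and at 45.99, 39.7 and 31.8 CPM in their knockouts. Every knockout was above every control, and the gap was widest in litter 1 and small in litter 3. The means were 22.9 ± 4.80 and 39.2 ± 7.10 CPM (SD, n = 3 each), a log2 fold change of 0.77 (SE 0.33; edgeR unadjusted p = 0.0479, adjusted p = 0.762). Within litters the difference was 1.30, 0.85 and 0.18. Unlike that of Rb1, this difference was as large without knockout 3 (log2 fold change 0.92; edgeR unadjusted p = 0.0230, adjusted p = 0.612). Rbl2 shares 9.17% of its exonic bases with Aktip and 11.8% with Gm45464, both on the opposite strand. Aktip was at 12.4, 2.41 and 0.612 CPM in the controls of litters 1 to 3 and at 3.62, 3.89 and 1.11 CPM in their knockouts. Gm45464 is not in the count lists. The part of reads from these neighbours in the Rbl2 values was not tested.

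Rbl1, which encodes p107, the pocket protein of cycling cells and itself an E2F target, lay on the other side. Rbl1 (chromosome 2, 157145893 to 157204534, minus strand) stood at 55.3, 35.4 and 26.8 CPM in the controls of litters 1 to 3 and at 26.1, 36.0 and 5.57 CPM in their knockouts. The groups overlapped, with knockout 2 at the level of control 2 and knockout 3 far below every other library. Its log2 fold change came to -0.79 (SE 0.64; edgeR adjusted p = 0.877), and -0.32 without knockout 3 (edgeR adjusted p = 0.906).

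The make-up of the pocket protein transcripts can be compared per length, as CPM per kilobase of merged GENCODE M21 exons. Rbl1 made up 46.6%, 32.5% and 27.8% of the summed level in the controls of litters 1 to 3, against 23.3%, 23.3% and 2.47% in their knockouts. A share moves with the other 2 genes as well: the summed level was 19.8, 18.2 and 16.1 CPM per kilobase in the controls and 18.8, 25.8 and 37.6 CPM per kilobase in the knockouts, and Rbl1 itself was at 5.91 CPM per kilobase in control 2 and 6.01 in knockout 2. The share of Rb1 was 40.9% to 51.5% in controls, 44.3% and 56.3% in knockouts 1 and 2, and 86.3% in knockout 3. Rbl2 made up 12.5%, 16.0% and 23.1% in the controls, against 32.4%, 20.4% and 11.2% in the knockouts, and was above its litter's control in litters 1 and 2.

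**Figure D3:**
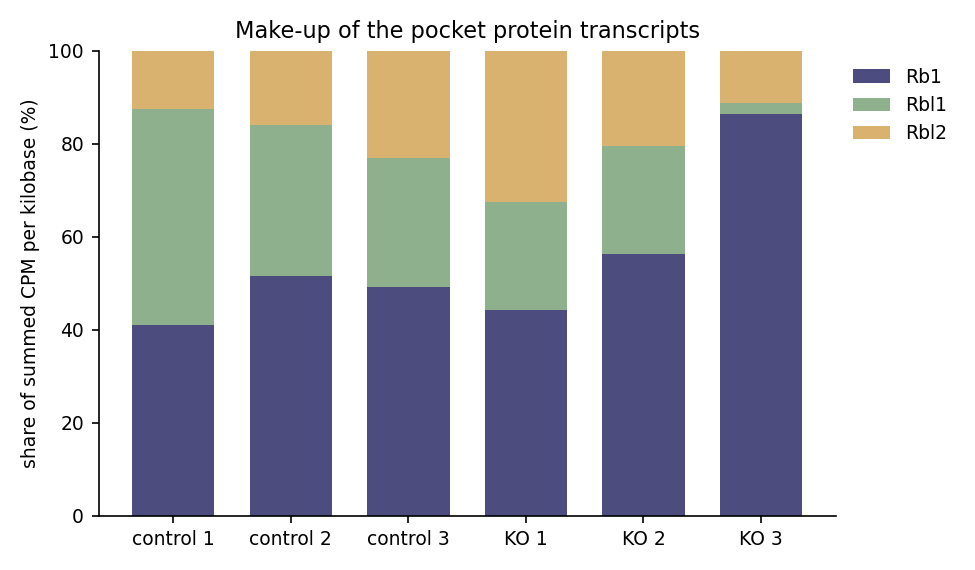
Share of Rb1, Rbl1 and Rbl2 in their summed level per kilobase of exon (vertical axis, percent) in each of the 6 libraries. The Rbl1 part is 2.47% to 23.3% in the knockouts and 27.8% to 46.6% in the controls, Rb1 fills 86.3% of knockout 3, and the summed level behind each bar differs (16.1 to 37.6 CPM per kilobase).

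Ordered by level per length in controls, E2f4 came first at 53.3 ± 14.4 CPM per kilobase (SD, n = 3), followed by E2f2 at 18.96 ± 5.06 and E2f8 at 14.7 ± 3.09 CPM per kilobase. E2f3, Rb1, E2f6, Rbl1, E2f1 and E2f7 came next, from 9.01 ± 0.570 down to 4.16 ± 1.11 CPM per kilobase, and Rbl2 was last at 3.03 ± 0.635 CPM per kilobase. Control values of neighbours in this order overlapped, except between E2f4 and E2f2 and between E2f8 and E2f3. In knockouts E2f4 was again first, at 46.9 ± 23.0 CPM per kilobase, with Rb1 at 18.4 ± 12.5 and E2f2 at 18.3 ± 13.1 CPM per kilobase next and level with each other, and Rbl2 seventh at 5.18 ± 0.940 CPM per kilobase. The knockout values of Rb1 spanned 8.31 to 32.5 CPM per kilobase; without knockout 3 its mean was 11.4, below the 12.6 CPM per kilobase of E2f8. The annotation behind the deposited counts is not given in the sources used here, so these lengths are approximate.

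**Figure D4:**
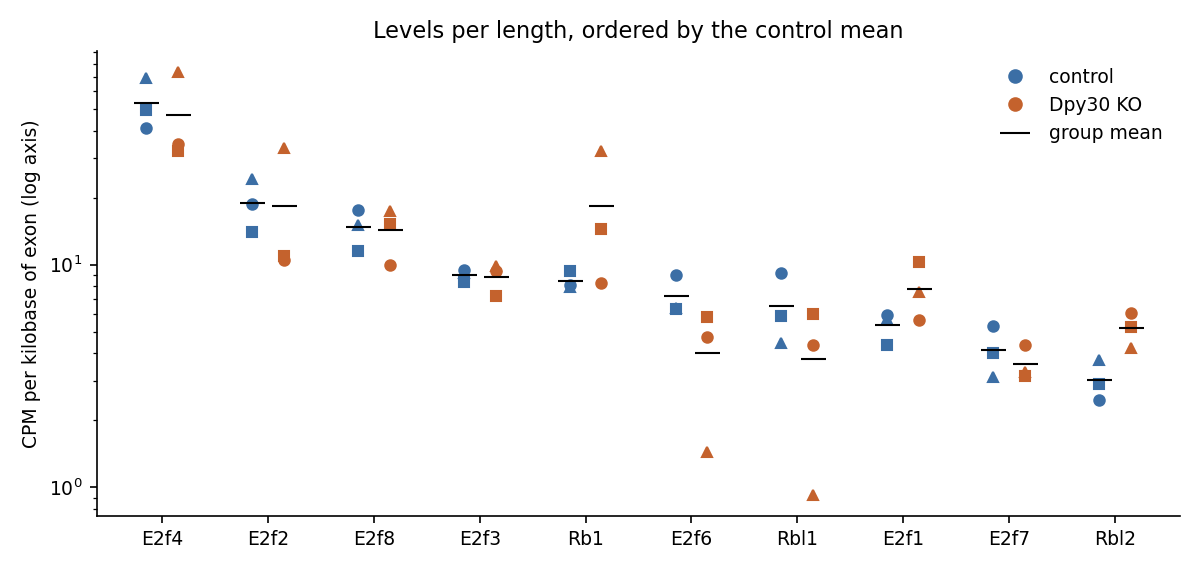
Level per kilobase of exon (vertical axis, CPM per kilobase, log axis) of each gene in each library, ordered by the control mean; colours mark the genotype, shapes the litters as in the other plots, and black bars are group means. E2f4 stands above the others in controls (41.2 to 69.3 CPM per kilobase), and the lowest points are Rbl1 (0.929) and E2f6 (1.44) in knockout 3.

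Likeness of pattern was measured as the root mean square distance between log2 CPM values centred on each gene's own mean, over the 6 libraries. The member nearest to Rbl1 was E2f6, and the member nearest to E2f6 was Rbl1, at a distance of 0.26, against a spread of 1.04 for Rbl1 and 0.84 for E2f6 around their own means. E2f2 and E2f4 were likewise nearest to each other, at 0.26, against spreads of 0.60 and 0.45. Among the 7051 other genes with a mean of at least 10 CPM, the nearest to E2f6 was Ppid (0.08), to Rbl1 Maoa (0.16), to Rb1 Arap1 (0.12) and to Rbl2 Efr3a (0.09). With 6 libraries these matches are a description only.

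Around the members, lists of partners, regulators and targets were read in the same fit. Each list had 0 genes past the edgeR threshold; at an unadjusted p under 0.05 there were 1 of 3 other E2F and DP genes, 1 of 7 DREAM and MuvB genes, 2 of 8 cyclins and kinases, 1 of 5 kinase inhibitors, 1 of 9 E2f6 partners, 4 of 39 targets of G1 and S phase and 6 of 30 targets of G2 and mitosis, against 6.51% of all tested genes. DP proteins are the partners that most E2F factors need to bind DNA. Both of their genes were lower in every knockout than in any control, by little for Tfdp2. This held for 7.74% of all tested genes, a share to set beside Mybl2, Cdk6 and Pcgf6 below as well. Tfdp1, which encodes DP1, stood at 57.3, 45.0 and 55.9 CPM in the controls of litters 1 to 3 and at 29.9, 37.5 and 34.3 CPM in their knockouts (log2 fold change -0.64, SE 0.27; edgeR unadjusted p = 0.0470, adjusted p = 0.762). Without knockout 3 it was -0.63 (edgeR adjusted p = 0.652). Tfdp2 was at 78.02 to 96.5 CPM in controls and at 44.8 to 77.0 CPM in knockouts (log2 fold change -0.41, SE 0.27; edgeR adjusted p = 0.857). E2f5, the remaining pocket-binding repressor, was at a mean of 5.995 CPM in controls and 8.70 CPM in knockouts (log2 fold change 0.54, SE 0.66; edgeR adjusted p = 0.927).

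In the DREAM and MuvB list 0 of 7 genes passed, 5 lay above 0 and 2 below, with a median log2 fold change of 0.07; upper-quartile scaling turned this to 3 above and 4 below, and the replicate block to 2 above and 5 below. The exception in size was Mybl2, which encodes B-MYB, the MuvB partner that switches on mitotic genes and is itself an E2F target. Mybl2 stood at 31.5, 21.1 and 32.4 CPM in the controls of litters 1 to 3 and at 9.89, 19.1 and 4.97 CPM in their knockouts, with no overlap (log2 fold change -1.32, SE 0.55; edgeR unadjusted p = 0.0417, adjusted p = 0.758; -0.96 without knockout 3). Lin54 and Rbbp4, MuvB subunits, had log2 fold changes of -0.56 and 0.29 (SE 0.43 and 0.36; edgeR adjusted p = 0.869 and 0.927).

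Upstream of the pocket proteins, 0 of 8 cyclin and kinase genes passed, 4 on either side of 0, with a median log2 fold change of 0.13. Ccnd2, encoding cyclin D2, had a control mean of 101 ± 11.7 CPM and a knockout mean of 185 ± 72.5 CPM (SD, n = 3 each; log2 fold change 0.88, edgeR adjusted p = 0.729), with knockout 1 among the controls. Ccnd3, encoding cyclin D3, had means of 39.8 ± 11.1 and 69.4 ± 34.3 CPM (SD, n = 3 each; log2 fold change 0.80, edgeR adjusted p = 0.800). Cdk6, the kinase partner of D cyclins most used in blood cells, was at 196 to 219 CPM in controls and at 103 to 165 CPM in knockouts, with no overlap (log2 fold change -0.58, SE 0.24; edgeR unadjusted p = 0.0397, adjusted p = 0.758).

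Of 7 cyclin-dependent kinase inhibitors 5 were tested and 0 passed in edgeR, while DESeq2 called 1, Cdkn1a. Of the 5, 3 lay above 0 with a median log2 fold change of 0.88, which was 0.26 without knockout 3 and -0.22 with the replicate block. Cdkn1a, which encodes p21, was at 1.45 to 3.00 CPM in controls and at 33.5, 92.5 and 164 CPM in knockouts 1 to 3 (log2 fold change 5.51; edgeR adjusted p = 0.452). Its order over the knockouts was that of Rb1, lowest in knockout 1 and highest in knockout 3. E2f2, E2f8, Ccnd2, Ccnd3 and Rybp were among other genes with this order, and an order over 3 libraries is a description only. Cdkn1c, encoding p57, had means of 14.8 ± 4.70 and 27.2 ± 13.2 CPM (SD, n = 3 each; edgeR adjusted p = 0.824). Cdkn2c was at 1.66 to 5.56 CPM in controls and at 2.16, 0.110 and 24.8 CPM in knockouts 1 to 3, so its log2 fold change of 1.39 turned to -1.57 without knockout 3. Cdkn2a had 0 counts in every library.

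E2f6 works with a variant Polycomb complex, and of 9 genes of that complex 0 passed, 4 above and 5 below 0, with a median log2 fold change of -0.003. The count depended on scaling, with 6 above 0 under DESeq2-style size factors, 7 with library size only and 2 with upper-quartile scaling. Pcgf6, which encodes the subunit that defines this complex, stood at 14.5, 19.5 and 13.5 CPM in the controls of litters 1 to 3 and at 6.26, 5.32 and 1.94 CPM in their knockouts, with no overlap. Its log2 fold change was -1.81 (SE 0.63; edgeR unadjusted p = 0.0209, adjusted p = 0.729), and -1.44 without knockout 3 (edgeR adjusted p = 0.609). Cbx3 had a log2 fold change of -0.65 (SE 0.44; edgeR adjusted p = 0.855) and Rybp one of 0.31 (SE 0.38; edgeR adjusted p = 0.926).

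Genes that E2F factors are known to control lay mostly below 0. Of 39 tested target genes of G1 and S phase 0 passed, and 30 had a negative log2 fold change, where 49.2% of all tested genes did. Their median was -0.30. In 7 of the 39 every knockout was below every control (7.74% of all genes). Mcm6, a subunit of the replicative helicase, was at 192 to 204 CPM in controls and at 113 to 146 CPM in knockouts (log2 fold change -0.61, SE 0.20; edgeR unadjusted p = 0.0155, adjusted p = 0.709). Rrm1, the large subunit of ribonucleotide reductase, was at 256 to 297 CPM and 120.4 to 214 CPM (log2 fold change -0.73, SE 0.25; edgeR adjusted p = 0.721), and Mcm10, a replication initiation factor, at 36.2 to 53.5 CPM and 14.97 to 28.1 CPM (log2 fold change -1.04, SE 0.37; edgeR adjusted p = 0.729). Without knockout 3 the median was -0.12, with 25 of 39 below 0 (51.2% of all genes), and with library size only 21 of 39 were below 0, where 36.9% of all genes were.

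For the 30 target genes of G2 and mitosis, which the DREAM complex silences in resting cells, 28 had a negative log2 fold change (49.2% of all tested genes), with a median of -0.40, and 0 passed. In 9 of the 30 every knockout was below every control (7.74% of all genes). Without knockout 3 the median was -0.40, again with 28 below 0 (51.2% of all genes), and with library size only 25 were below 0 (36.9% of all genes). Cdc20, the activator of the anaphase-promoting complex, stood at 35.4, 24.9 and 32.6 CPM in the controls of litters 1 to 3 and at 8.35, 13.9 and 4.03 CPM in their knockouts (log2 fold change -1.82, SE 0.52; edgeR unadjusted p = 0.00820, adjusted p = 0.668). Hmmr, a spindle protein gene, was at 71.7 to 113 CPM and 46.7 to 65.5 CPM (log2 fold change -0.74, SE 0.27; edgeR adjusted p = 0.729), and Bub1b, a spindle checkpoint kinase gene, at 92.7 to 110.3 CPM and 64.2 to 71.3 CPM (log2 fold change -0.58, SE 0.21; edgeR adjusted p = 0.729). Lower values of cell cycle genes in these samples were already known when the lists were drawn up, so these counts are a description.

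**Figure D5:**
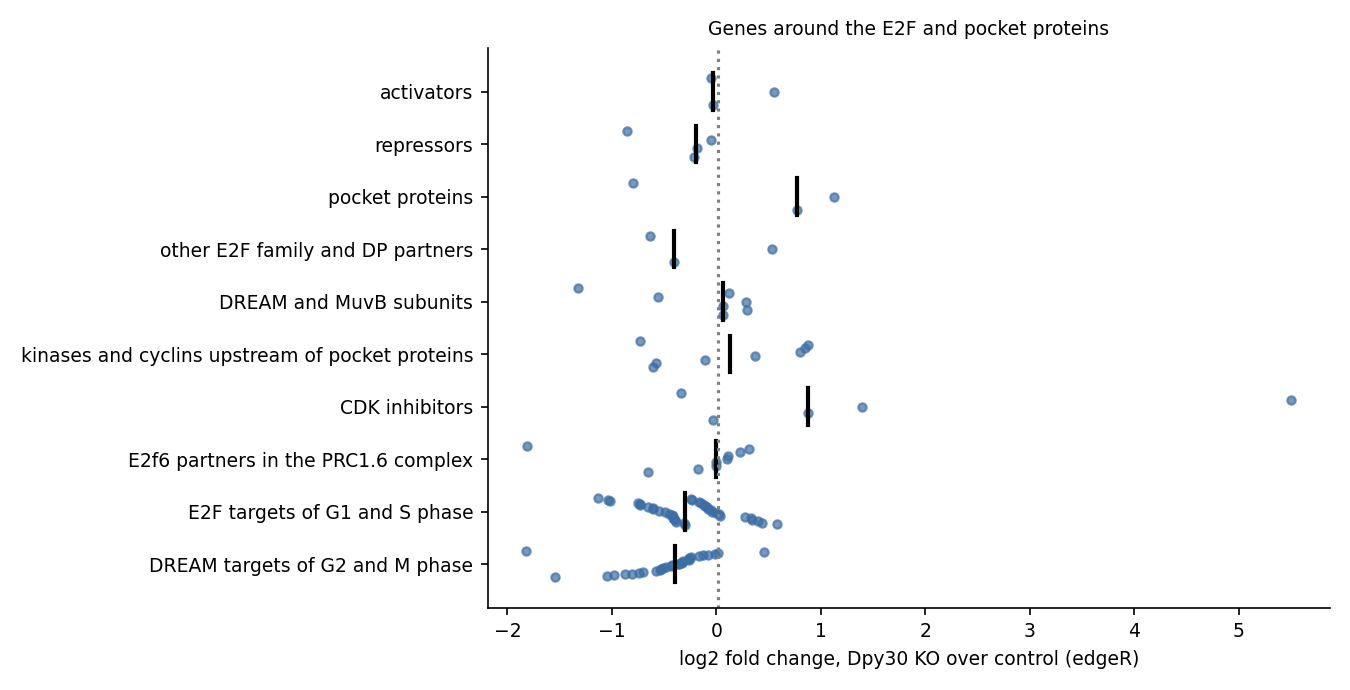
Log2 fold change, knockout over control (horizontal axis), of each tested gene in 10 lists around the E2F and pocket proteins; points are genes, spread vertically for display, black bars are list medians and the dotted line is the median of all tested genes (0.01). Both target lists lie mostly to the left, with medians of -0.30 and -0.40, and the point near 5.51 is Cdkn1a.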

How the data were processed

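Polyadenylated RNA of sorted fetal liver HSCs was sequenced in 3 control and 3 knockout samples, grouped by the genotype label, with litter numbers as replicate numbers. The authors deposited raw read counts, whole numbers listed by gene symbol. The submitters' processing notes name the build mm10 and the tools CASAVA 1.8.4, TopHat2, Picard 1.126, HTSeq 0.6.0, DESeq 3.0 and bedtools 2.17.0, without their roles. The 5 tallies of reads given to no gene, 41.0% to 51.0% of all reads, were left out.

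Genes were kept with filterByExpr and scaled by TMM. Genotypes were compared by the quasi-likelihood F test of edgeR 4.0.16 (R 4.3.3), with no term for litter and Benjamini-Hochberg adjustment across 13646 genes and a threshold of 0.05. Each SE was the absolute log2 fold change divided by the root of F. Log2 CPM used a prior count of 2. DESeq2 1.42.0, limma-voom (limma 3.58.1), a replicate block, 3 other scalings, 2 other filters and leaving out each sample were the alternatives. The scripts were tested on simulated counts with 200 genes changed by 3 on the log2 scale. With a coefficient of variation of 0.2 between samples, edgeR and DESeq2 each recovered 99.5% of them. With 0.817, the common value of these data, edgeR recovered 0% and DESeq2 38%, and 38.2% of the DESeq2 calls were false. At that spread a count of 0 in edgeR does not show that genes were unchanged. Each simulated gene had the same spread, so the simulated shares need not hold for single genes. The SEs of the members ran from 0.26 (E2f3) to 0.64 (Rbl1).

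The pairing comes from the litter labels. The correlations of deviations from the genotype means were -0.02, -0.08 and 0.003 in litters 1 to 3. Named were all members, Dpy30, and the 3 genes with the smallest p in each pathway list. Myeloid, erythroid, hepatocyte and HSC marker lists are given as levels; Adgre1 was found under its older symbol Emr1. The members and lists were chosen with earlier results of these data known. Positions and lengths are from GENCODE M21 (GRCm38) and start windows from RefSeq (GRCm38.p6).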

Additional observations from a re-analysis of the deposited data

How the results depend on the processing

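With the replicate block, a pairing by litter, 0 members and 0 genes passed in edgeR (0 and 619 at an unadjusted p under 0.05), and it changed no call. The count of members past the threshold was 0 in all 14 alternatives to the test, and ranged from 0 to 0 when each sample was left out. Over all genes the count was 138 in DESeq2 (104 higher, 34 lower), 1 without a filter on low counts, 1 with at least 10 counts in every sample, and 0 in the others; the cause was not tested. The adjusted p of the 10 members ranged from 0.326 (Rb1 without knockout 1) to 1.00 over the alternatives. The activator minus repressor difference ranged from 0.23 to 0.62 over the samples left out, and was 0.22 from summed CPM.

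E2f1, E2f6, Rb1, Rbl1 and Rbl2 kept their direction in all alternatives. The other 5 members, all within 0.21 of 0, changed sign in 14 of their 70 values. With library size only, E2f2, E2f3, E2f7 and E2f8 were at 0.12, 0.19, 0.059 and 0.16, where the median of all genes moved by 0.21; upper-quartile scaling moved it by -0.12, the block by -0.14 and limma-voom by -0.16. Over the samples left out, E2f2 ranged from -0.81 (without knockout 3) to 0.22 (without knockout 1), E2f3 from -0.11 to 0.10, E2f4 from -0.65 to 0.049, E2f7 from -0.38 to 0.0095, E2f8 from -0.21 to 0.15, E2f1 from 0.30 (without knockout 2) to 0.74, E2f6 from -1.23 to -0.44, Rb1 from 0.44 to 1.47, Rbl1 from -1.30 (without knockout 2) to -0.32 and Rbl2 from 0.64 to 0.95. Leaving out knockout 3 in the pathway lists and per-length levels, and E2f6 in the repressors, was chosen after seeing the data.

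Dpy30 itself, at 34.2% of its control level, had adjusted p-values of 0.131 (DESeq2) and above. E2f7 and E2f8 share with genes on the opposite strand 0.955% and 11.2% of their exonic bases.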

Other observations

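Germline genes are known targets of silencing by E2f6. Of 10 such genes 7 had 0 counts in every library and 2, Stag3 and Ddx4, passed the filter. Stag3, a meiotic cohesin gene, had 1, 24 and 9 counts in the controls of litters 1 to 3, against 41, 150 and 0 in their knockouts. Smc1b, another meiotic cohesin gene that missed the filter, had 9, 0 and 1 counts in controls and 121, 39 and 0 in knockouts. For both genes knockout 3, the library with the least E2f6, had 0 counts and knockouts 1 and 2 had more than any control (Stag3: log2 fold change 2.53, edgeR adjusted p = 0.869). Ddx4, a germ cell RNA helicase gene, did not follow that order, with 49, 126 and 62 counts in controls and 30, 169 and 99 in knockouts (log2 fold change 0.35, edgeR adjusted p = 0.977). Stag3 and Ddx4 did not pass the test, and Smc1b, named after its counts were seen, was not tested.

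An E2F word in the RefSeq start window was found for 15 of 31 matched genes in the list of G1 and S phase targets, for 1 of 26 in the list of G2 and mitosis targets, and for 2.61% of all 27025 genes in the table. Tfdp1 also held the word TTTCGCGC, on the reverse strand, with its first base at position -43. These are counts of letters in windows of 300 bases. The first list was drawn up as E2F targets, so its share is a description of the choice.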
